A study of Mus musculus with 10 samples.

Results

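H3K27me3, the repressive histone mark laid down by Polycomb repressive complex 2 (PRC2), was examined at 10 genes of arterial and venous endothelium. The cells were long-term hematopoietic stem cells (LT-HSCs). The genes were Nrp1, Nrp2, Nr2f2, Efnb2, Ephb4, Gja4, Gja5, Cdh5, Kdr and Flt4, which is 10 of 21938 protein-coding genes of the annotation. The rule names them and uses no measured value. A peak was assigned to a gene when it overlapped the gene body or a promoter window. The window ran from 5 kb before to 100 bp after each transcription start site (TSS) of the gene. The data were CUT&Tag (C&T) libraries, in which an antibody directs a transposase to the mark so that sequenced fragments show where it lies.

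Fetal livers (FL) at E14.5 were the source of the LT-HSCs, which were sorted by the gate LSK CD48-CD150+ from IκBα WT and IκBα KO embryos, with 3 libraries of each genotype (replicates 1 to 3). The KO embryos carried the Nfkbia tm1Bal allele, a targeted germline deletion present in every cell of the embryo, and came from heterozygous matings that also involved the Gfi1:tomato line. Whether the embryos behind each of the H3K27me3 libraries carried Gfi1:tomato is not given in the sources used here. The study's figure legend describes the assay as a pair of independent experiments and gives embryo totals per genotype. Its reporting summary instead describes 3 independent replicates. Neither says which embryos or which experiment each library came from. The antibody was clone C36B11 in all 6 libraries. The remaining 4 of 10 samples, C&T for IκBα, were not analysed here.

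Hematopoietic stem cells arise from endothelial cells of the embryonic aorta, and leave the endothelial program as they enter the blood lineage. In that program the vascular endothelial growth factor (VEGF) receptors Kdr and Flt4 and the co-receptors Nrp1 and Nrp2 receive growth signals, the ligand Efnb2 marks arteries and its receptor Ephb4 marks veins, and the transcription factor Nr2f2 holds venous identity. PRC2 keeps developmental genes of other lineages silent, and its mark typically spreads from CpG-rich promoters.

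The 6 libraries differed in their number of peaks, and this touches every count. Replicate 3 of each genotype was read with 50 bp reads and replicates 1 and 2 with 75 bp reads, so that each read length holds both genotypes. WT replicate 3 held 1047 peaks, KO replicate 3 held 2325, and the other 4 libraries held 4160 to 6013. The median over peaks of the maximum coverage was 6 fragments in WT replicate 3 and 9 or 10 in the others. Each library kept its own top 0.5% of enriched blocks, so a gene without a peak was below that limit and not shown to be free of the mark. The sources used here do not say which embryos or litters each library came from, so p-values measure the spread between these libraries, which may be partly technical.

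The labels were checked first. Nfkbia, the targeted gene, had no peak in any library, so these data give no check of the genotype labels. Of 12 genes active in hematopoietic stem cells, such as Kit, Runx1 and Mecom, 0 had a promoter peak in any library, and the same held for 0 of 3 active control genes. Promoter peaks were found at 3 of 4 lymphoid genes (Ebf1 and Pax5 in all 6 libraries), at 3 of 5 sinusoidal and stromal genes (Des in all 6, Stab2 and Lyve1 in none), at 1 of 5 erythroid, 0 of 4 myeloid and 0 of 5 hepatoblast genes. Of all coding genes 15.8% had a promoter peak in at least 1 library, and these lists are short. A peak of a repressive mark does not measure expression, so these counts describe the sorted cells only in part.

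Of the 10 genes, 5 had a promoter peak in at least 1 library (Nrp1, Nrp2, Nr2f2, Ephb4 and Kdr), against 15.8% of all coding genes. With the 1047 strongest peaks of each library these were 2 (Nrp2 and Nr2f2), against 7.79% of coding genes, and with peaks above the library median 3 (Nrp1, Nrp2 and Nr2f2), against 2528 of the 21938 coding genes. With gene bodies included, Flt4 made 6, against 17.5% of coding genes. The other 4, Efnb2, Gja4, Gja5 and Cdh5, had no peak in any library. Nr2f2 alone had a promoter peak in all 6 libraries (2.65% of coding genes did), and Nr2f2 and Nrp2 had a peak at promoter or body in all 6 (3.47% of coding genes). The genes called at promoter or body in at least 4 libraries were thus the venous transcription factor and both neuropilin co-receptors, and those never called were the connexins, the arterial ligand and the junction cadherin.

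The promoters of Nrp2 and Nr2f2, called most often, and of Efnb2, CpG-dense and never called, are given below together with that of Kdr, called in WT libraries only. Each is 300 bases from RefSeq (GRCm38.p6), 250 before to 50 after the start, written 5′ to 3′ on the strand of the gene, with CpG dinucleotides in capitals. Of the 10 genes, 9 had an entry in the promoter table and Cdh5 had none.
Nrp2 (chr1:62703067-62703366, plus strand): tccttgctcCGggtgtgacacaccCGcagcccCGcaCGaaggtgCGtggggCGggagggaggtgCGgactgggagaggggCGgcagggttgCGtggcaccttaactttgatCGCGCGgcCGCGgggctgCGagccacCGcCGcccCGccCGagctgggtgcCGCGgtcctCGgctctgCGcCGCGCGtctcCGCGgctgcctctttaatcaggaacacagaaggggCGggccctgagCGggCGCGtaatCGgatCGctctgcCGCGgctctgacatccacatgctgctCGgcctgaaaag
Nr2f2 (chr7:70366697-70366996, minus strand): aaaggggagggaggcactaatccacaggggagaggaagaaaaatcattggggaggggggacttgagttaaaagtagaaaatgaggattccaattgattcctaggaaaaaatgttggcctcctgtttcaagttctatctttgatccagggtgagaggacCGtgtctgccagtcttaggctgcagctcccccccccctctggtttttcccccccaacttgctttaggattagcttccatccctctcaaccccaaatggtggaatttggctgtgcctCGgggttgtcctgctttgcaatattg
Efnb2 (chr8:8661193-8661492, minus strand): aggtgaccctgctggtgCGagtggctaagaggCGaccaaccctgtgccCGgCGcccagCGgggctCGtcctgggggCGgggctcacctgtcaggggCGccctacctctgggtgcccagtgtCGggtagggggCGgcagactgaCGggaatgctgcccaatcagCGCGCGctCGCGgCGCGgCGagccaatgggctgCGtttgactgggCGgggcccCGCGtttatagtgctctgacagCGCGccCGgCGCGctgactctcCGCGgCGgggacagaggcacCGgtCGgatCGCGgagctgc
Kdr (chr5:75978406-75978705, minus strand): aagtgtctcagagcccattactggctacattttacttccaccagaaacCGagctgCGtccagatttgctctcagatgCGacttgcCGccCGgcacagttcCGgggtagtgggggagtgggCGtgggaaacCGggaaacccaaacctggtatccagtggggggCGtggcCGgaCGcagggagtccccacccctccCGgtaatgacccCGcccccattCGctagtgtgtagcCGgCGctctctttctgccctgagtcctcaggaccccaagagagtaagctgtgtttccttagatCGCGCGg
The Nrp2 sequence held 37 CpGs, that of Efnb2 35, that of Kdr 19 and that of Nr2f2 2, against a median of 7 over the 27025 promoters of the table. The whole Nrp2 sequence lay under a peak in WT replicate 1 and in the 3 KO libraries. That of Nr2f2 lay wholly under a peak in WT replicates 1 and 2 and in KO replicates 1 and 3. No base of the Efnb2 and Kdr sequences lay under a peak in any library, the Kdr peaks starting downstream of them.

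Nr2f2 encodes the orphan nuclear receptor COUP-TFII, which specifies veins by restraining Notch signaling. It lies on chromosome 7 (70351944 to 70366735, minus strand, ENSMUSG00000030551.14) and has 6 annotated TSSs. Peaks covered 15.9, 16.0 and 0.91 kb of its promoter and body in WT replicates 1, 2 and 3, and 12.5, 9.17 and 10.1 kb in the KO libraries. WT replicate 3 was far below the other 5, and the KO values fell between it and the other WT libraries. The mean was 10.95 kb ± 8.70 (SD, n = 3) in WT and 10.6 kb ± 1.71 (SD, n = 3) in KO, with an exact two-sided permutation p of 1. Without WT replicate 3 the difference, KO minus WT, moved from -0.35 to -5.37 kb. Within the 75 bp libraries it was -5.14 kb with no overlap (exact permutation p of 0.33, the smallest possible there). The lone 50 bp library of WT lay below that of KO. How often the 75 bp libraries separate so over all coding genes was not counted.

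Within Nr2f2 the mark was not one block. In WT replicates 1 and 2 and KO replicate 1, a peak of 7.31 to 8.54 kb covered 5 of the 6 TSSs inside the gene and a further peak of 3.95 to 9.56 kb spanned the outermost TSS. KO replicate 2 had a single gene peak of 9.17 kb over the same 5 internal TSSs, and its upstream peak lay beyond the promoter window. KO replicate 3 had 3 narrower gene peaks, of which the one 4.0 to 5.3 kb inside the gene reached a maximum of 21 fragments, the highest at any of the 10 genes. The only gene peak of WT replicate 3, 910 bp wide with a maximum of 9, lay in the same intronic stretch.

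The domain also ran beyond the gene. Within 50 kb of Nr2f2 on either side, 35.9, 39.1 and 3.04 kb were under peaks in WT and 42.2, 37.7 and 14.3 kb in KO. Both replicate 3 libraries were the lowest of their genotype. Most of the added length lay past the 3′ end, over the noncoding genes Gm29683, Gm44946 and Gm44948, and the rest lay upstream over B130024G19Rik and Gm28258. None of the other 9 genes had more than 1 peak within 50 kb in any library.

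Nrp2 encodes neuropilin 2, a co-receptor for VEGF-C and class 3 semaphorins that is characteristic of veins and lymphatics. It lies on chromosome 1 (62703285 to 62818695, plus strand, ENSMUSG00000025969.15), and each library had 1 peak there, close to the 5′ end. The peak was 5.595, 5.374 and 1.25 kb wide in WT replicates 1, 2 and 3, and 8.10, 6.38 and 6.75 kb in KO. All KO peaks were wider than all WT peaks, and WT replicate 3 was well below the other WT libraries. Its mean width was 4.07 kb ± 2.45 (SD, n = 3) in WT and 7.08 kb ± 0.906 (SD, n = 3) in KO, a difference of 3.00 kb. Without WT replicate 3, the library with the fewest peaks, the difference was 1.59 kb. Within the 75 bp libraries it was 1.76 kb with no overlap (exact permutation p of 0.33, the smallest possible there). The share of coding genes with such a split was not counted. The lone 50 bp libraries had 1.25 kb in WT and 6.75 kb in KO. With the 1047 strongest peaks of each library it was 6.66 kb, and the promoter was called in 0 WT and 3 KO libraries. This cut removed the whole 5.595 and 5.374 kb peaks of WT replicates 1 and 2, and removed no peak from WT replicate 3. The larger value therefore reflects peaks lost at the cut. The share of coding genes called in this way was not counted. The part of depth and peak number in this difference was not tested.

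The exact two-sided permutation test gave p = 0.1 for this difference at Nrp2, the smallest value that 3 against 3 libraries allow, and an adjusted p of 1 over the 3847 coding genes with a peak. No gene could pass 0.05 by this test, so its outcome was fixed in advance. Groups that did not overlap, with longer marked length in KO, occurred at 1.59% of the coding genes with a peak and with shorter at 0.078%. Among the 10 genes, 1 was higher in this sense and 0 were lower.

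The upstream edge of the Nrp2 peak lay further upstream in every KO than in every WT library. How often peak edges separate the groups at other genes was not counted. Counted from the TSS, it lay at -0.26 kb in WT replicate 1 but at 0.71 and 2.68 kb, inside the gene, in WT replicates 2 and 3. In KO replicates 1, 2 and 3 it lay upstream, at -2.14, -0.996 and -1.34 kb. The downstream edge was at 5.33, 6.08 and 3.93 kb in WT and at 5.96, 5.38 and 5.41 kb in KO, so that here the groups overlapped. Nrp2 thus had a promoter peak in 1 of 3 WT and 3 of 3 KO libraries, and it was the single one of the 10 genes with at least 2 more KO than WT libraries called, as were 6.72% of the coding genes with a promoter peak. With a promoter of 1 kb on each side of the TSS, WT libraries called rose to 2 of 3.

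**Figure D1:**
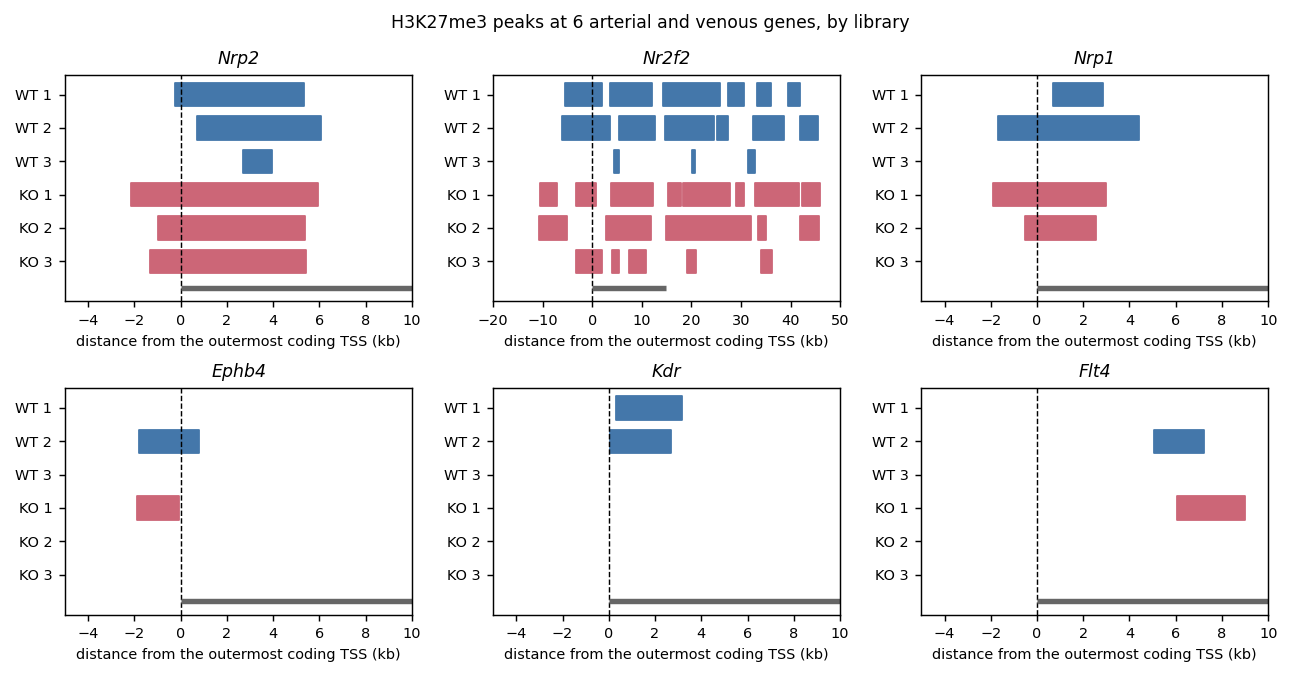
H3K27me3 peaks (horizontal bars) in each WT (blue) and KO (red) library against the distance in kb from the outermost coding TSS (dashed line; grey bar, gene body from that TSS on), for the 6 genes with a peak. At Nrp2 the KO bars begin between -2.14 and -0.996 kb and the WT bars between -0.26 and 2.68 kb; the Nr2f2 panel has a wider axis and includes the surrounding 50 kb.

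The coverage summed over the Nrp2 peak, its total signal, came to 18390, 22410 and 3440 for the WT libraries. For the KO libraries it came to 36588, 31608 and 22349. On this unscaled measure KO replicate 3 was just below WT replicate 2 and the groups overlapped. The maximum coverage was 8, 9 and 5 fragments for WT and 15, 12 and 11 for KO, and did not overlap. How often this occurs at other genes was not counted. Within each library, the Nrp2 peak ranked above 71.0%, 76.8% and 6.59% of peaks by total signal in WT and above 88.6%, 89.9% and 92.2% in KO.

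Signal was then compared at the 717 merged regions with a peak in all 6 libraries, on log2 total signal centred on each library's median over these regions. The Nrp2 region (chromosome 1, 62701141 to 62709368) had centred log2 values of -0.54, -0.61 and -0.44 in WT and of -0.0016 in KO replicate 1, 0.09 in replicate 2 and 0.48 in replicate 3. All KO values exceeded all WT values, and the share of the 717 regions where this holds was not counted. In limma the difference, KO minus WT, was 0.72 ± 0.31 (SE) on the log2 scale with a 95% interval of 0.03 to 1.40. Its unadjusted limma p was 0.041, the sixth smallest of the 717 regions, and its Benjamini-Hochberg adjusted limma p was 0.99.

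No region passed: limma called 0 of 717 regions at an adjusted p of 0.05 (0%), and 8 had an unadjusted p under 0.05, of which 4 were higher in KO (0.558% of regions), Nrp2 among them. At the Nrp2 region the limma difference in median-centred maximum coverage was 0.49 ± 0.21 (SE) on the log2 scale, with an unadjusted limma p of 0.033 and an adjusted limma p of 0.996. Mean coverage per covered base was 3.29, 4.17 and 2.76 fragments for the WT libraries and 4.52, 4.95 and 3.31 for the KO libraries. These values overlapped over all 6 libraries and not within the 75 bp libraries, a split that was not counted over the other regions. The limma difference in median-centred mean coverage was 0.08 ± 0.17 (SE) on the log2 scale.

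Nr2f2 had 2 regions called in all 6 libraries. The region with its promoters (70354034 to 70377588) had centred log2 total signals of 1.17, 0.89 and -0.36 for the WT libraries and 0.85, 0.71 and 1.18 for the KO libraries. The groups overlapped, and the limma difference was 0.35 ± 0.42 (SE; 95% interval -0.58 to 1.28; adjusted limma p of 0.99). This direction rested on WT replicate 3, without which the difference was -0.11. The region past the 3′ end (70320765 to 70352455), which touches the gene at its last exon in WT replicates 1 and 2 only, had 1.46, 1.46 and 0.64 in WT and 1.66, 1.53 and -0.03 in KO. Its limma difference was -0.13 ± 0.48 (SE, with a 95% interval of -1.19 to 0.92), and both replicate 3 libraries were the lowest of their genotype. Without KO replicate 3 the difference was 0.41, and without WT replicate 1 or 2 it was 0.0015 or 0.0022.

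**Figure D2:**
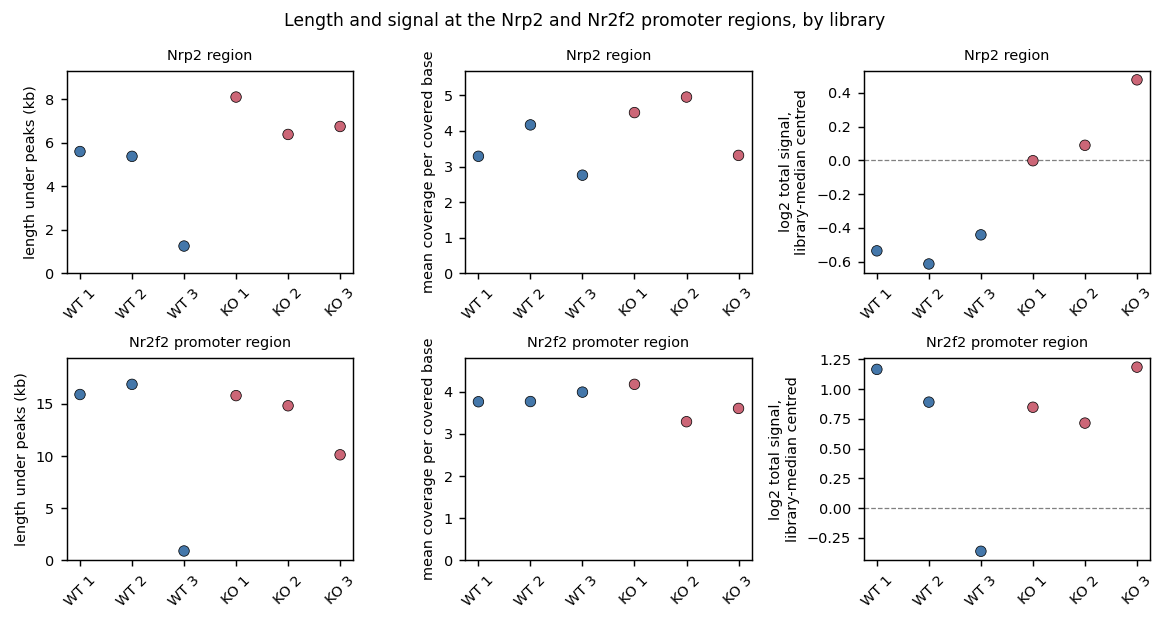
Length under peaks in kb (left), mean coverage in fragments per covered base (middle) and log2 total signal centred on each library's median (right; dashed line, the median) in each library, WT in blue and KO in red, for the Nrp2 region (top) and the Nr2f2 promoter region (bottom). For Nrp2 the KO points lie above all WT points in length and centred signal but not in mean coverage; at Nr2f2 WT replicate 3 stands apart at 0.91 kb.

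The coding promoters whose centred signal followed Nrp2 most closely over the 6 libraries were those of Vwa5b2, Nog, a secreted BMP antagonist, and Egr4, with mean absolute differences of 0.14, 0.19 and 0.19 on the log2 scale. For the Nr2f2 promoter region they were Hrh3, Irx3 and the adjoining Gpr153 and Hes3, with mean absolute differences of 0.17, 0.18 and 0.19. For the region past the 3′ end they were Msx3, Nkx2-2 and the adjoining Fdxr and Grin2c, at 0.20, 0.28 and 0.29.

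Nrp1 encodes neuropilin 1, the co-receptor for VEGF-A that is enriched in arteries. It lies on chromosome 8 (128358604 to 128503363, plus strand, ENSMUSG00000025810.9). Its peaks covered 2.18 kb in WT replicate 1, 6.10 kb in WT replicate 2, 4.92 kb in KO replicate 1 and 3.10 kb in KO replicate 2, and neither replicate 3 library had one. The groups overlapped, with means of 2.76 kb ± 3.09 (SD, n = 3) in WT and 2.67 kb ± 2.49 (SD, n = 3) in KO and an exact permutation p of 1. Maximum coverage was 7 fragments in both WT peaks and 11 and 9 in the KO peaks, and the coverage sums were 6863 and 17219 for the WT peaks and 19551 and 12333 for the KO peaks.

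The peak of WT replicate 1 at Nrp1 lay wholly in an intron, from 0.69 to 2.87 kb after the coding TSS, and so did not count as a promoter peak. The other 3 covered 3 or 4 of its 4 TSSs. Promoter peaks at Nrp1 were therefore found in 1 WT and 2 KO libraries, and in 2 of each with a promoter of 1 kb on each side of the TSS. Over replicates 1 and 2 alone, the limma difference at Nrp1 was 0.40 ± 0.41 (SE) on the log2 scale, smaller than its standard error. With the regions called in at least 3 libraries, where a library without a peak was given its weakest kept signal, it was 0.00030 ± 0.47 (SE).

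Kdr encodes the main signaling receptor for VEGF-A and is among the earliest genes of endothelial and blood progenitors. It lies on chromosome 5 (75932827 to 75978458, minus strand, ENSMUSG00000062960.10). It had a peak in WT replicates 1 and 2, of 2.86 and 2.65 kb, and none in WT replicate 3 or in any KO library. The total signals were 7692 and 7681 with maxima of 7 and 5 fragments, and they ranked above only 14.8% and 14.1% of the peaks of their libraries. The promoter call at Kdr, in WT replicate 2 alone, was lost when an overlap of at least 500 bp was asked for, whereas a promoter of 1 kb on each side of the TSS gave a call in 2 WT and 0 KO libraries. Both peaks began just inside the gene, 0.32 and 0.05 kb after the TSS, and were intronic over 98.7% and 88.6% of their length.

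The mean marked length at Kdr was 1.84 kb ± 1.59 (SD, n = 3) in WT against 0 kb in KO, with an exact two-sided permutation p of 0.4 and an adjusted p of 1. Because WT replicate 3 had no peak either, the groups overlapped. Within the 75 bp libraries the difference, KO minus WT, was -2.75 kb with no overlap (exact permutation p of 0.33, the smallest possible there). The share of coding genes with such a split was not counted. Kdr was the single one of the 10 genes with a peak in at least 2 more WT than KO libraries, as were 1.35% of the 3847 coding genes with a peak. The weakest peak kept had a total signal of 6616 and 6812 in WT replicates 1 and 2 and of 6689, 7307 and 6711 in KO, so the Kdr peaks were close to the limit of calling.

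Flt4, the VEGF-C receptor of veins and lymphatics, lies on chromosome 11 (49609263 to 49652739, plus strand, ENSMUSG00000020357.3). It had 1 peak in WT replicate 2, of 2.18 kb with a total signal of 7586, and 1 in KO replicate 1, of 2.94 kb with a total signal of 8999. They lay in introns, between 5.039 and 8.995 kb after the TSS, overlapped each other and left the promoter without a peak in all 6 libraries. Ephb4, the venous receptor of ephrin-B2, lies on chromosome 5 (137350109 to 137378669, plus strand, ENSMUSG00000029710.15) and was called in the same 2 libraries. Its peak was 2.62 kb wide in WT replicate 2, over all 5 TSSs, and 1.81 kb wide in KO replicate 1, where it ended 0.07 kb before the first. The Ephb4 total signals were 8345 and 7402. The exact permutation p for marked length was 1 at both genes, and the peaks ranked above 9.30% to 24.9% of the peaks of their libraries.

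**Figure D3:**
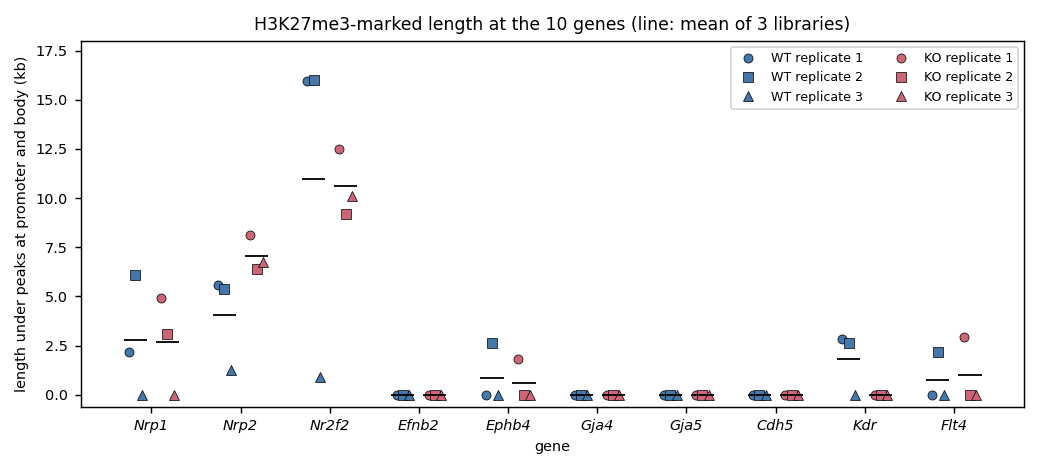
Length under H3K27me3 peaks in kb over promoter and body at each of the 10 genes, with 1 symbol per library (WT blue, KO red; circle, square and triangle, replicates 1, 2 and 3) and a line at the mean of 3 libraries. Nrp2 is the gene whose KO values (6.38 to 8.10 kb) all lie above its WT values (1.25 to 5.595 kb), and 4 genes are at 0 throughout.

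Ordered by mean marked length over the 6 libraries, Nr2f2 came first (10.8 kb ± 5.61, SD), then Nrp2 (5.57 kb ± 2.33, SD) and Nrp1 (2.72 kb ± 2.51, SD). Nr2f2 was longer than Nrp2 in 5 of 6 libraries, and Nrp2 was longer than Nrp1 in 5 of 6. Nrp1 was longer than Kdr in 3 of 6. The means of Kdr, Flt4 and Ephb4, at 0.92, 0.85 and 0.74 kb, differed by less than their SDs of 1.17 to 1.42 kb.

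The 4 genes without a peak differed in their surroundings. Efnb2, the arterial ephrin ligand (chromosome 8, 8617434 to 8661242, minus strand, ENSMUSG00000001300.16), had its nearest peak 127.1 kb away in WT replicate 2 and at least 1109 kb away in the other 5 libraries. Gja5, a connexin of arterial gap junctions (chromosome 3, 96904693 to 97077416, plus strand, ENSMUSG00000057123.14), had its nearest peak 222 to 308 kb away, at Ankrd34a in 5 libraries and at Ankrd35 in KO replicate 1. These genes stood in long stretches without a called peak.

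Gja4, another arterial connexin (chromosome 4, 127311421 to 127314039, minus strand, ENSMUSG00000050234.7), had its nearest peak at Dlgap3, 85.6 to 141.4 kb away, in WT replicates 1 and 3 and KO replicate 3. Cdh5, the VE-cadherin of endothelial junctions (chromosome 8, 104101625 to 104144511, plus strand, ENSMUSG00000031871.9), had a peak at Bean1 24.0 to 25.2 kb away in 5 libraries, of both genotypes, and its nearest peak in WT replicate 3 was 1124 kb away.

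A promoter peak in all 3 WT libraries was found at 1 of the 10 genes (Nr2f2), against 3.01% of coding genes, and in all 3 KO libraries at 2 (Nrp2 and Nr2f2), against 7.12%. Per library, promoter peaks were found at 2, 4 and 1 of the 10 genes in WT and at 4, 3 and 2 in KO. The shares of all coding genes were 10.6%, 12.9% and 3.46% in WT and 12.9%, 12.2% and 8.06% in KO. Over the 75 bp libraries alone, both WT libraries shared a promoter peak at 1 of the 10 genes (Nr2f2), where 9.74% of coding genes did, and both KO libraries at 3 (Nrp1, Nrp2 and Nr2f2), where 10.7% did.

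The promoters of the 10 genes were then described by their CpG content within 500 bp of the coding TSS with the highest ratio of observed to expected CpGs. A ratio of at least 0.6 with a GC content of at least 50% was called CpG-rich. By this measure 8 of the 10 genes were CpG-rich, all but Gja4 (0.47) and Cdh5 (0.24), and the 5 with a promoter peak were among these 8. Of all CpG-rich coding promoters 20.1% had a peak in at least 1 library, and of the others 11.7%. The share did not rise steadily with the ratio. It was highest, 25.85%, at ratios of 0.4 to 0.6, and 16.55% at 0.8 to 1.0. At Nr2f2 the TSS so chosen lies inside the gene, at 70360593 (ratio 0.77), whereas the 300 bases printed for it surround the outermost one. Efnb2 had the highest ratio of the 10 genes, 0.96, above 94.7% of coding genes, and no peak. Flt4 (0.81) and Gja5 (0.64) were CpG-rich without a promoter peak as well.

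**Figure D4:**
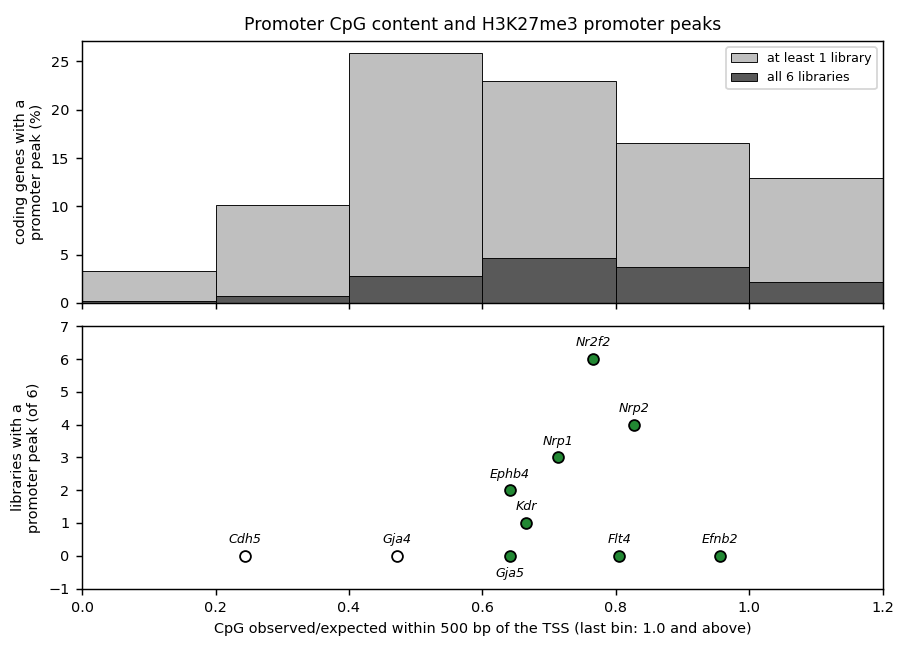
Top, the share of coding genes with an H3K27me3 promoter peak in at least 1 library (light) and in all 6 (dark), in %, by the CpG observed/expected ratio around the TSS; bottom, the number of libraries of 6 with a promoter peak at each of the 10 genes against the same ratio (green, CpG-rich; white, other). Called genes lie between ratios of 0.64 and 0.83, and Efnb2, at 0.96, was not called.

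Motifs were counted on both strands of the 300-base promoters. The ETS core CCGGAA, of the factor family that drives endothelial genes, was found in that of Kdr only, 1 of 9, and in 15.2% of the promoters of the table. The GATA motif AGATAA was found in 0 of 9 and in 11.4% of all.

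To set the 10 genes beside their pathways, 67 other genes in 6 lists were counted. A promoter peak in at least 1 library was found at 30 of the 67, in all WT libraries at 5 and in all KO libraries at 20, against 15.8%, 3.01% and 7.12% of coding genes. Over the 75 bp libraries, 21 had a promoter peak in both WT libraries and 25 in both KO libraries. The genes marked in all 6 libraries were Hey2, a Notch target of arteries, Bmp4, a growth factor, the receptor Ephb2, the connexin Gjb2, and Nr2f1, the closest relative of Nr2f2.

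By role, relatives of the 10 genes (ephrins, Eph receptors, connexins, nuclear receptors and cadherins) had a promoter peak in at least 1 library at 9 of 12. The counts were 4 of 6 for venous, 3 of 6 for lymphatic and 7 of 15 for arterial genes. They were 4 of 16 for pan-endothelial genes and 3 of 12 for semaphorin and VEGF ligands and plexin partners. A promoter peak in all KO libraries was found at 6 of the 12 relatives, 2 of the venous, 3 of the lymphatic, 4 of the arterial and 4 of the pan-endothelial genes and 1 ligand. Nr2f1 held 9.60, 8.92 and 1.51 kb under peaks in WT and 11.6, 10.8 and 6.94 kb in KO. Its groups overlapped, as did those of Nr2f2. No test was made between these lists.

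Of the 67 genes, 31 had a peak at promoter or body in at least 1 library. Marked length was longer in every KO than in every WT library at 2 of these 31, and shorter at 0, beside 1.59% and 0.078% of coding genes with a peak. These 2 were Ephb2 and Cdh2, named after their values were seen. At Ephb2, a receptor related to Ephb4, 2.57, 3.81 and 1.55 kb were marked in WT and 6.62, 6.44 and 3.92 kb in KO. At Cdh2, 3.209, 3.755 and 0 kb were marked in WT and 5.698, 5.377 and 3.827 kb in KO. At both genes KO replicate 3 only just exceeded WT replicate 2.

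**Figure D5:**
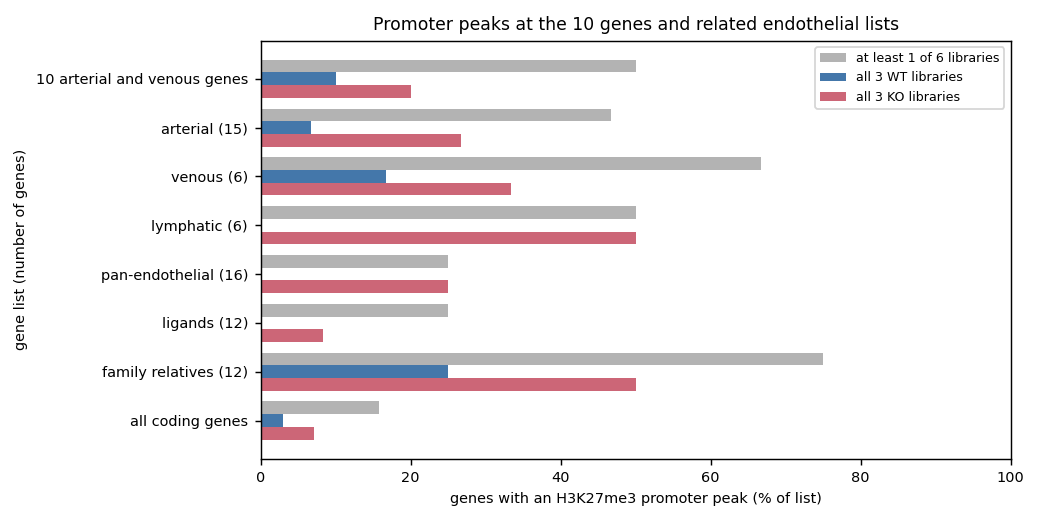
Share of genes, in % of each list, with an H3K27me3 promoter peak in at least 1 of 6 libraries (grey), in all 3 WT libraries (blue) and in all 3 KO libraries (red), for the 10 arterial and venous genes, 6 related lists (number of genes in parentheses) and all coding genes. In every row the red bar is at least as long as the blue one, as it is for all coding genes (7.12% against 3.01%).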

How the data were processed

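Per the labels and the methods of the study, reads were trimmed (Trim Galore 0.6.6) and aligned to GRCm38 (Bowtie2 2.4.4), multi-mapped reads, reads with a mapping quality under 20 and duplicates were removed, and peaks were called per library with SEACR 1.3 (stringent, top 0.5%, no IgG control). The authors deposited 2 signal columns, total coverage signal and maximum signal over each peak, neither scaled to library size, so both rise with depth; read totals, which the study lists, were not used here. The number of peaks (1047 to 6013 per library) is given as a count and not as a measure of depth. Gene models were GENCODE M21 on GRCm38, and a promoter or body overlap needed at least 1 bp.

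Marked length was the length under peaks over promoters and body, compared by exact permutation over 20 assignments, with Benjamini-Hochberg adjustment over all coding genes with a peak. Regions with a peak in all 6 libraries were tested with limma 3.58.1 (R 4.3.3) on log2 total signal centred per library. Python 3.11.15 was used otherwise. The limma fit was tested on simulated data. The tests above are unpaired. The replicate number entered only alternatives, as a block or in sign flips over pairs, since deviations from group means of same-numbered WT and KO libraries correlated with r of 0.27, 0.31 and 0.47 over the 717 regions, which are not independent. WT replicate 2 and KO replicate 1 correlated as well (0.27), so replicates 1 and 2 are not told apart by number; the pairing is known from the data alone, and replicate 3 also differs in read length and depth. All 10 genes were named, with, for each of their regions called in all 6 libraries, the 3 coding promoters closest in centred signal, and, of the lists, the genes called in all 6 libraries. The genes and lists were chosen with earlier results of these data known. Alternatives in windows, peak numbers, scaling and left-out libraries are given at the end. The surroundings of Gja4 in the other 3 libraries are not reported here.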

Additional observations from a re-analysis of the deposited data

How the results depend on the processing

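The limma difference at Nrp2 was higher in KO under all 13 alternatives, from 0.08 (mean coverage per base) to 0.81 (without KO replicate 1) on the log2 scale, with unadjusted p from 0.020 to 0.67 and adjusted limma p from 0.79 to 0.999; limma called 0 regions in each, and 0 to 119 regions had an unadjusted p under 0.05. Scaling by summed signal moved the median of all regions to -0.26, with Nrp2 at 0.48. The replicate block left the Nrp2 difference at 0.72 (adjusted limma p of 0.90), gave 25 regions an unadjusted p under 0.05 against 8 without it, and changed no call; over the 3 pairs the exact sign-flip p for marked length was 0.25, the smallest possible, at Nrp2 and 0.5 at Kdr. The Nr2f2 promoter region turned lower in KO for mean coverage per base (-0.31), with array weights (-0.066) and over replicates 1 and 2 (-0.23), and the Nr2f2 3′ region turned higher over replicates 1 and 2 (0.15). With 1 library left out, these ranged from -0.11 to 0.65 and from -0.44 to 0.41. The difference in marked length was 0 kb at Nrp1, Ephb4, Kdr and Flt4 with the 1047 strongest peaks of each library, where it was 6.66 kb at Nrp2 and -2.12 kb at Nr2f2, and in promoter windows 0.32 kb at Nrp1, 0.25 kb at Nr2f2, 1.75 kb at Nrp2, -0.016 kb at Kdr and 0 kb at Flt4. With 1 library left out it ranged from -1.47 to 1.58 kb at Nrp1, 1.59 to 3.77 kb at Nrp2, -5.37 to 2.17 kb at Nr2f2, -0.87 to 0.60 kb at Ephb4, -2.75 to -1.33 kb at Kdr and -0.73 to 0.98 kb at Flt4. Genes with a promoter peak in all WT libraries numbered 0 with peaks above the library median and 2 with bodies included; those in at least 1 library numbered 2 with the 1047 strongest peaks and 3 with peaks above the median. The causes were not tested. Coverage of 5 to 21 fragments at the maxima and 3 libraries per genotype limit every comparison. The exact permutation test cannot give a p under 0.1 here, so no difference in marked length could pass 0.05, however many genes differed.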
